A study of Mus musculus with 6 samples.

Results

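Genes of the ATF4 stress response and of amino acid supply were examined in Th17 cells that differ in the transcription factor RORγt. The set of 36 genes was chosen by name, with earlier results of these data known, and all 36 were found by gene symbol among the 16244 genes of the deposited table. It holds 10 stress regulators, 8 enzymes of serine, glycine and folate metabolism, 5 other amino acid enzymes, 11 amino acid transporters and 2 receptors. Naive CD4+ T cells from the spleens of wild-type (WT) mice or of mice with the RORγt N275D point mutation knocked in, both on a C57BL/6 background, were grown in culture for 3 days under conditions that give pathogenic Th17 cells. These conditions combine stimulation through CD3 and CD28 with cytokines that include IL-6, IL-1β and IL-23. RNA-seq libraries of 3 WT and 3 N275D samples were compared. The mutation is carried in the germline and not only in T cells, and the WT mice were bought while the knockin line came from another laboratory. Whether the libraries of a genotype came from separate animals or cultures is not given in the labels, so that p-values measure the spread between these libraries, which may be technical.

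ATF4 is a transcription factor whose protein is made when the kinases of the integrated stress response phosphorylate eIF2α, for example when uncharged tRNA accumulates in cells short of amino acids. It binds composite C/EBP-ATF elements in its target genes and raises the expression of transporters, biosynthetic enzymes and further stress regulators. Activated T cells take up large amounts of amino acids and use serine and one-carbon units for nucleotide synthesis. Since ATF4 is controlled mainly at translation, the level of its mRNA does not report the level of its protein.

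Values are normalized reads, that is, the authors' count for each gene scaled by a single factor for its library. Reads on genes lay between 17905693 and 18510878 in the WT libraries and between 17659035 and 17888463 in the N275D libraries. Fold changes were taken on log2(normalized reads + 1), which understates the change of low genes, and genes with a mean of at least 10 were tested with limma. A gene was called at a Benjamini-Hochberg adjusted p under 0.05. The genotypes differed widely at this threshold: 50.9% of the 11908 genes tested were called, 24.7% as higher and 26.1% as lower in N275D, and in 57.7% the libraries of the genotypes did not overlap. A 2-fold difference was less common and was called in 3.59% of genes, with 2.73% higher in N275D. Markers of Th17 and CD4 T cells summed to between 74730 and 78800 normalized reads in WT libraries and to between 86610 and 87330 in N275D libraries. Reads summed per gene cannot show the point mutation itself.

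Promoter sequences are shown first because the set is defined around 1 DNA-binding factor. The core of the C/EBP-ATF element, TGATGNAA, was looked for on both strands from 250 bases before to 50 bases after each start site in RefSeq promoters of GRCm38.p6, the build called mm10. A promoter was listed for 31 of the 36 genes, and those without an entry were Cth, Slc38a1, Slc1a5, Slc7a5 and Slc7a3. The 8 letters were present in 8 of these 31 genes, each given here as a 30-base stretch in the orientation of the element, with the match in capitals.
Pycr1, chr11:120643833-120643862, minus strand: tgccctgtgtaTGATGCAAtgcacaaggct
Vldlr, chr19:27216809-27216838, minus strand: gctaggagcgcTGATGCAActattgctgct
Atf3, chr1:191183425-191183454, plus strand: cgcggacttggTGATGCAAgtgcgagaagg
Trib3, chr2:152344028-152344057, plus strand: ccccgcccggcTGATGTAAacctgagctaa
Chac1, chr2:119351038-119351067, minus strand: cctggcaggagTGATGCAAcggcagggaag
Asns, chr6:7693214-7693243, minus strand: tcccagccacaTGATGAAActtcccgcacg
Nupr1, chr7:126625562-126625591, plus strand: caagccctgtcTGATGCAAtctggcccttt
Slc1a4, chr11:20332699-20332728, plus strand: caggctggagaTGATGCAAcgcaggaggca

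All 8 of these genes were called higher in N275D cells, so that the match was found in 8 of the 21 called-higher genes with a listed promoter (38.1%). It was found in 0 of 5 called-lower genes, in 0 of 4 genes not called and in 0 of 1 gene not tested. For comparison, the same letters occur in 1304 of all 32851 promoters of this length (3.97%) and in 270 of the 12250 promoters of tested genes (2.20%). Counted in the same way, per promoter, it was in 8 of the 38 promoters of the set (21.1%). The form TGATGCAA accounted for 6 of the 8 matches and is held by 0.895% of all promoters, whereas Trib3 carried TGATGTAA and Asns carried TGATGAAA. The match lay 103 bases before the start site in Pycr1, 110 bases before it in both Atf3 and Nupr1, 193 in Chac1, 23 in Asns and 4 in Slc1a4. In Vldlr it lay 200 bases before the second of its listed start sites, and in Trib3 it lay 14 bases after the start. The set was chosen by name around ATF4, with earlier results of these data known, so that these shares are no independent evidence. A match is a run of letters and no measurement of binding, and a gene without it may hold an element outside this window or of another form.

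Of the 36 genes, 35 passed the filter on low values, and 30 of these (85.7%) were called, against 50.9% of all genes tested. N275D cells had higher levels of 23 genes and lower levels of 7, against 24.7% and 26.1% of all genes, and 4 genes, Slc7a3, Pycr1, Vldlr and Atf3, were more than 2-fold higher. None was 2-fold lower. The median log2 fold change was 0.17, against -0.0026 over all genes tested. The 3 N275D libraries lay above all 3 WT libraries in 24 genes and below all of them in 7, and such a separation was found in 57.7% of all genes tested. The plot of fold changes by role sets the higher genes apart from the lower: 8 of 10 stress regulators were higher and 0 were lower, whereas the enzymes of folate metabolism and the transporters each held genes that moved in opposite directions. RNA was taken from whole cultures, where fewer cells of a type and less RNA per cell cannot be told apart.

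**Figure D1:**
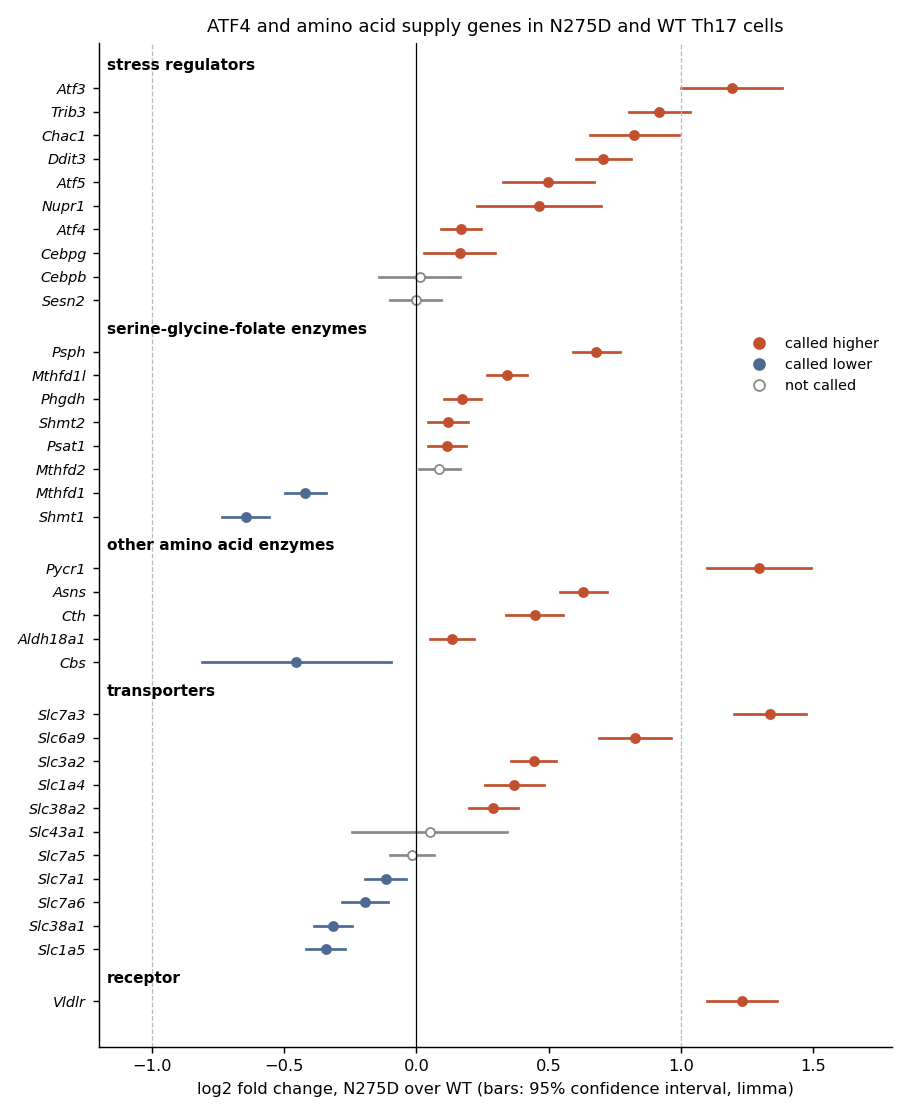
Log2 fold change of each tested gene, N275D over WT, with its 95% confidence interval from limma, grouped by role and ordered by size, with dashed lines at a 2-fold difference. Filled points mark the 23 genes called higher and the 7 called lower, and open points the 5 not called, among which are Sesn2, Cebpb and Slc7a5.

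Of the stress regulators, Atf3 changed the most. This stress-induced factor of the ATF/CREB family (gene at chr1:191170296-191183333) had 238, 304 and 318 normalized reads in the WT libraries and 660, 678 and 617 in the N275D libraries. Each N275D library lay well above each WT library, and the gene was 2.29-fold higher (log2 fold change 1.19, SE 0.09, adjusted p = 2.26e-08). Trib3, a pseudokinase that is induced by ATF4 and restrains it, had 602, 613 and 678 normalized reads in WT and 1203, 1170 and 1205 in N275D libraries. The 3 mutant libraries differed little from each other, and Trib3 was 1.89-fold higher (log2 fold change 0.92, SE 0.05, adjusted p = 1.35e-09). Chac1, which degrades glutathione, had 211, 259 and 242 normalized reads in WT and 416, 410 and 432 in N275D libraries. The genotypes did not overlap, and the gene was 1.77-fold higher (log2 fold change 0.82, SE 0.08, adjusted p = 4.06e-07). Ddit3, which encodes the C/EBP homologous factor CHOP, had 774, 797 and 787 normalized reads in WT and 1257, 1344 and 1251 in N275D libraries. It was 1.63-fold higher, a difference far larger than the spread within either genotype (log2 fold change 0.71, SE 0.05, adjusted p = 8.43e-09).

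Atf4 mRNA itself differed much less. It had 7962, 8121 and 8417 normalized reads in the WT libraries and 9234, 8959 and 9355 in the N275D libraries. The genotypes did not overlap, but the difference was 12.4% (log2 fold change 0.17, 95% confidence interval 0.09 to 0.24, adjusted p = 8.16e-04). Per kilobase of exon, Atf4 (chr15:80255184-80257545) was the second most abundant gene of the set, at 3463 normalized reads per kilobase in WT and 3894 in N275D cells, and Atf3 stood at 133 and 303 on that scale. Its relative Atf5, which is also controlled at translation, was 41.4% higher, with 255 to 321 normalized reads in WT and 394 to 421 in N275D libraries (adjusted p = 9.17e-05). Nupr1, a small chromatin-associated stress protein, was 37.9% higher at a lower level, with 76.7 to 87.4 normalized reads in WT and 110 to 118 in N275D libraries (adjusted p = 0.00244).

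Cebpg and Cebpb, C/EBP family members that can pair with ATF4, differed little, unlike Ddit3. Cebpg had 886 to 1072 normalized reads in WT and 1095 to 1144 in N275D libraries, and its call (adjusted p = 0.0428) rested on single libraries. Without WT replicate 3, the lowest, its log2 fold change fell from 0.16 to 0.07 with an adjusted p of 0.168, and the call was also lost when any 1 of the 3 N275D replicates was left out (adjusted p of 0.0662 to 0.126). Cebpb was not called, with 334 to 364 normalized reads in WT and 328 to 379 in N275D libraries (95% confidence interval of the log2 fold change -0.14 to 0.17). Sesn2, a leucine sensor that restrains mTORC1, was not called either, at 1218 to 1293 normalized reads in WT and 1236 to 1271 in N275D libraries. Its interval, -0.10 to 0.09, leaves out a change of the size seen in Chac1, Ddit3 or Trib3. As a group the 10 stress regulators had a median log2 fold change of 0.48. They summed to 13095 ± 317 normalized reads in WT and 15985 ± 146 in N275D cells (SD, n = 3), a difference of 22.1%. Most of this sum was Atf4, at a mean of 8167 normalized reads in WT and 9183 in N275D cells.

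**Figure D2:**
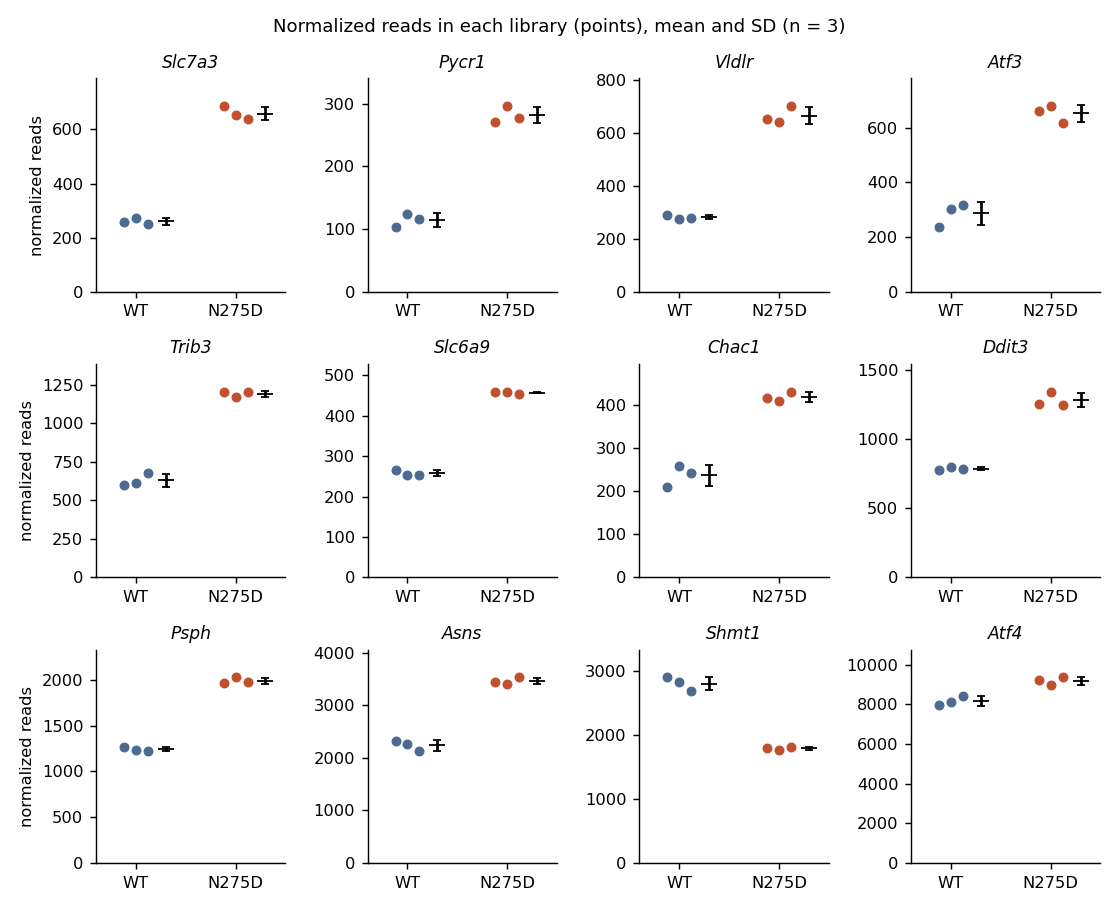
Normalized reads of 12 genes in each library (points), with the mean and SD of the 3 libraries of each genotype (bar and whiskers), on axes that start at 0. The genotypes do not overlap in any panel, with Shmt1 lower in N275D cells and the other genes higher, and Atf4 shows the smallest relative difference.

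Serine is made from a glycolytic intermediate by Phgdh, Psat1 and Psph in turn, and the enzymes were unequally changed. Psph, the phosphatase that releases serine in the last step (chr5:129765558-129787443), had 1266, 1237 and 1222 normalized reads in WT and 1967, 2026 and 1977 in N275D libraries. The genotypes were well separated, and Psph was 1.60-fold higher (log2 fold change 0.68, SE 0.04, adjusted p = 2.08e-09). The enzymes of the steps before it, Phgdh and Psat1, were already abundant, at 3686 and 1649 normalized reads per kilobase in WT cells against 287 for Psph. Phgdh was 12.8% higher (adjusted p = 3.99e-04), with 9103 to 9265 normalized reads in WT and 10087 to 10542 in N275D libraries. Psat1 was 8.35% higher (adjusted p = 0.0106), and this call was lost without N275D replicate 2 (adjusted p = 0.0667).

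The enzymes that carry serine-derived carbon on folate exist in cytosolic and mitochondrial forms, and the cytosolic forms in the set, Shmt1 and Mthfd1, were lower in N275D cells. Shmt1, the cytosolic serine hydroxymethyltransferase (chr11:60788897-60811265), had 2900, 2827 and 2686 normalized reads in WT and 1804, 1766 and 1807 in N275D libraries. Every N275D library lay below every WT library, and Shmt1 fell to 0.64 of its WT level, the lowest fold change in the set (log2 fold change -0.64, SE 0.04, adjusted p = 3.72e-09). Mthfd1, the cytosolic enzyme with 3 folate-interconverting activities, had 4856, 4838 and 4665 normalized reads in WT and 3565, 3541 and 3626 in N275D libraries. It was lower by 0.42 on the log2 scale in N275D cells, again without overlap (SE 0.04, adjusted p = 1.11e-07).

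None of the 3 mitochondrial forms in the set was lower, although other mitochondrial genes of these pathways were. Slc25a32, the mitochondrial folate carrier, Gcsh, of the glycine cleavage system, and Sfxn1, a mitochondrial serine carrier, had log2 fold changes of -0.43, -0.37 and -0.20 (adjusted p = 4.43e-06, 2.14e-04 and 8.86e-04). A further mitochondrial form, Mthfd2l, was not called, with a log2 fold change of -0.25 (adjusted p = 0.145). These 4 genes were picked after their values were seen. Mthfd1l, which releases formate from mitochondrial folate, had 3041, 3074 and 3048 normalized reads in WT and 3858, 3861 and 3890 in N275D libraries, and was 26.7% higher (log2 fold change 0.34, SE 0.04, adjusted p = 9.96e-07). Shmt2 was 8.67% higher (adjusted p = 0.0113), a call that was lost without N275D replicate 2 (adjusted p = 0.0950). Mthfd2, the mitochondrial dehydrogenase and cyclohydrolase, was not called although its genotypes did not overlap, with 4290 to 4412 normalized reads in WT and 4478 to 4744 in N275D libraries. Its log2 fold change was 0.09 with a confidence interval of 0.01 to 0.17 (adjusted p = 0.0587), and it passed the threshold without WT replicate 3 (adjusted p = 0.0481).

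Ratios of the mitochondrial to the cytosolic form were taken within each library, which cancels the library's scaling factor. The values are not corrected for gene length, so that only their change between genotypes can be read. Shmt2 over Shmt1 was 2.52, 2.58 and 2.78 in the WT libraries and 4.40, 4.71 and 4.28 in the N275D libraries, a 1.70-fold higher ratio. Mthfd1l over Mthfd1 went from 0.638 ± 0.0138 in WT to 1.08 ± 0.00884 in N275D cells (SD, n = 3), also 1.70-fold, and Mthfd2 over Mthfd1 was 1.42-fold higher. In each case the genotypes did not overlap. These are among 10 ratios that were computed after the values of single genes had been seen, and each had an exact two-sided permutation p of 0.1 (0.1 after adjustment over the 10), the smallest that 3 libraries against 3 can give. Summed over the 8 enzymes, some higher and some lower, the level differed by 5.06%, with 39766 ± 387 normalized reads in WT and 41779 ± 597 in N275D cells (SD, n = 3).

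**Figure D3:**
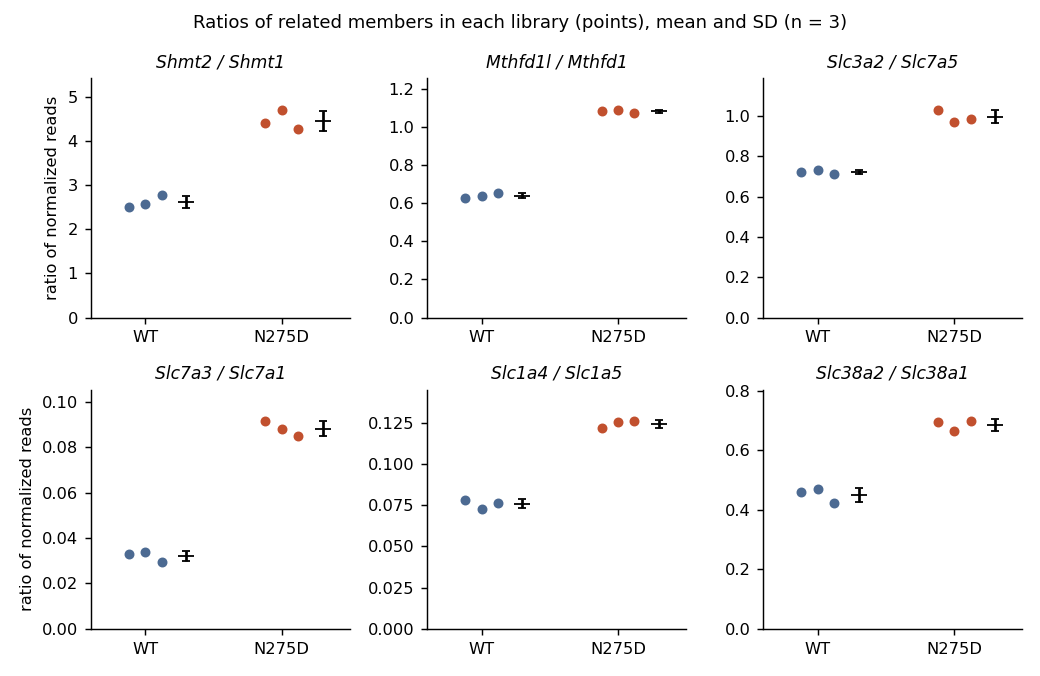
Ratio of normalized reads of 6 pairs of related genes in each library (points), with the mean and SD of 3 libraries per genotype, on axes that start at 0. Every pair has a higher ratio in the N275D libraries, with Shmt2 over Shmt1 and Mthfd1l over Mthfd1 each 1.70-fold higher and Slc7a3 over Slc7a1 2.75-fold higher.

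All 5 of the other amino acid enzymes were called, 4 higher and 1 lower, where 50.9% of all genes tested were called. Pycr1, a mitochondrial enzyme of the final step of proline synthesis (chr11:120638998-120643748), had 103, 124 and 116 normalized reads in WT and 272, 296 and 277 in N275D libraries. The highest WT library lay far below the lowest N275D library, and Pycr1 was 2.45-fold higher (SE of the log2 fold change 0.09, adjusted p = 1.17e-08). Aldh18a1, which catalyses the committed step of the same pathway, was more abundant and only 9.78% higher (adjusted p = 0.0100). Its adjusted p was 0.0528 with WT replicate 1 left out and 0.0792 with N275D replicate 2 left out, which ended the call. The ratio of Pycr1 to Aldh18a1 was 2.25-fold higher in N275D cells.

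Asns, the asparagine synthetase and a standard ATF4 target (chr6:7675165-7693209), had 2325, 2267 and 2124 normalized reads in WT and 3450, 3417 and 3535 in N275D libraries. The genotypes were well separated, with a 1.55-fold higher level in N275D cells (log2 fold change 0.63, SE 0.04, adjusted p = 5.25e-09). Relative to Atf4 mRNA in the same library, Asns was 1.38-fold higher. Cth and Cbs, the enzymes that turn homocysteine into cysteine, moved in opposite directions. Cth was 36.3% higher, with 1112 to 1235 normalized reads in WT and 1532 to 1648 in N275D libraries (adjusted p = 2.19e-06). Cbs, a gene of low level at 47.4 to 70.7 normalized reads in WT and 40.1 to 44.9 in N275D libraries, was lower by 0.45 on the log2 scale (adjusted p = 0.0333). It no longer passed without WT replicate 1, where the difference was -0.31 with an adjusted p of 0.177, nor without N275D replicate 2 or 3 (adjusted p of 0.0863 and 0.0840). The 5 enzymes together had 7381 ± 117 normalized reads in WT and 9559 ± 137 in N275D cells (SD, n = 3), a difference of 29.5%.

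The 11 amino acid transporters were divided, with 5 higher, 4 lower and 2 not called, against 24.7% higher and 26.1% lower of all genes tested. Their median log2 fold change of 0.05 changed sign to -0.0251 without N275D replicate 1. Slc7a3, a cationic amino acid transporter encoded at chrX:101079146-101090452, showed the largest difference of the whole set. It had 256, 273 and 250 normalized reads in WT and 686, 654 and 637 in N275D libraries, which did not come near to overlapping. The gene was 2.53-fold higher (log2 fold change 1.34, SE 0.06, adjusted p = 1.00e-10). Slc6a9, a glycine transporter, had 266, 254 and 252 normalized reads in WT and 458, 459 and 455 in N275D libraries. The N275D libraries were nearly equal, and Slc6a9 was 1.77-fold higher (log2 fold change 0.83, SE 0.06, adjusted p = 3.74e-08).

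Related transporters often moved in opposite directions. Slc7a1, a cationic transporter like Slc7a3 but more abundant in WT cells, at 703 against 68.7 normalized reads per kilobase, was lower by 0.12 on the log2 scale in N275D cells (adjusted p = 0.0142), and this call was lost without N275D replicate 2 (adjusted p = 0.0592). Slc1a5, a carrier of glutamine and other neutral amino acids, had 8535, 8702 and 9040 normalized reads in WT and 6931, 6909 and 6876 in N275D libraries. It was lower by 0.34 on the log2 scale, without overlap (adjusted p = 6.48e-07). Its close relative Slc1a4, which also carries serine and alanine, was instead 29.3% higher, with 633 to 692 normalized reads in WT and 843 to 867 in N275D libraries (adjusted p = 2.77e-05). The ratio of Slc1a4 to Slc1a5 was 1.64-fold higher in N275D cells.

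The sodium-coupled neutral transporters split in the same way. Slc38a1 had 6094 to 6154 normalized reads in WT and 4889 to 4961 in N275D libraries and was lower by 0.32 on the log2 scale (adjusted p = 1.21e-06). Slc38a2, which is known to be induced when amino acids are scarce, was 22.3% higher, with 2596 to 2857 normalized reads in WT and 3293 to 3443 in N275D libraries (adjusted p = 4.25e-05). The ratio of Slc38a2 to Slc38a1 was 1.52-fold higher. Slc7a5 and Slc3a2 encode the light and heavy chain of the large neutral amino acid transporter, and only the heavy chain was called. Slc3a2 had 5507, 5547 and 5857 normalized reads in WT and 8027, 7653 and 7340 in N275D libraries and was 36.1% higher (log2 fold change 0.44, SE 0.04, adjusted p = 1.91e-07). Slc7a5 had 7569 to 8216 normalized reads in WT and 7456 to 7867 in N275D libraries, an overlapping range (95% confidence interval of the log2 fold change -0.10 to 0.07). The ratio of Slc3a2 to Slc7a5 in a library was 1.38-fold higher in N275D cells.

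Slc7a6, another light chain partner of Slc3a2, was lower by 0.20 on the log2 scale (2107 to 2161 normalized reads in WT and 1840 to 1924 in N275D libraries, adjusted p = 8.79e-04). Slc43a1, a sodium-independent neutral amino acid transporter, was scarce, at 65.2 to 82.9 normalized reads over all 6 libraries, and its interval of -0.24 to 0.34 leaves a moderate change in either direction possible. Summed over the 11 transporters, the level was nearly equal in the genotypes, at 42586 ± 1004 normalized reads in WT and 41974 ± 514 in N275D cells (SD, n = 3). Among the receptors, Vldlr, which binds very-low-density lipoprotein (chr19:27216480-27254231), had 290.7, 275.4 and 279.0 normalized reads in WT and 651, 639 and 699 in N275D libraries. It was 2.35-fold higher, with a wide gap between the genotypes (log2 fold change 1.23, SE 0.06, adjusted p = 2.14e-10). Ddr2, a collagen receptor, was near 0 in both genotypes, with 0 to 5.04 normalized reads in WT and 1.98 to 6.02 in N275D libraries, and was not tested.

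Per kilobase of exon, the most abundant genes of the set were Phgdh, Atf4, Shmt2, Slc7a5 and Slc1a5 in WT cells, at 3686, 3463, 2366, 2103 and 2099 normalized reads per kilobase. Slc7a5 and Slc1a5, neighbours in this order, did not differ beyond their spread in WT cells, whereas in N275D cells they stood at 2077 and 1655. The 4 genes that were 2-fold higher, Atf3, Slc7a3, Pycr1 and Vldlr, had 133, 68.7, 29.1 and 28.0 normalized reads per kilobase in WT cells. The 9 genes that averaged 1000 or more normalized reads per kilobase had a median absolute log2 fold change of 0.169, and the 26 below it one of 0.45. Across the 35 tested genes, level and absolute log2 fold change had a Spearman correlation of -0.424, and over all 11908 genes tested the correlation with the mean level was -0.289. These values come from the same libraries and describe them only.

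Further genes of the same pathways were examined from lists written from general knowledge, but with earlier results of these data known. Their counts are therefore no independent evidence. Of 24 other ATF4 target genes tested, 17 (70.8%) were higher and 1 was lower, against 24.7% and 26.1% of all genes, and their median log2 fold change was 0.23. The largest increases were in Gadd45a, a growth-arrest gene that rose from 64.3 ± 8.83 to 198 ± 19.5 normalized reads (SD, n = 3; log2 fold change 1.61, adjusted p = 2.45e-08), and in Aldh1l2, the mitochondrial 10-formyltetrahydrofolate dehydrogenase, which rose from 118 ± 11.4 to 349 ± 16.7 (log2 fold change 1.56, adjusted p = 8.01e-10). Ddit4, an inhibitor of mTORC1 that is also induced by hypoxia, was the single gene that was lower, with a log2 fold change of -0.53 (adjusted p = 1.90e-07). Of the 11 eIF2 kinases and regulators of eIF2α tested, 5 (45.5%) were higher and 1 was lower, against 24.7% and 26.1% of all genes. The share called in either direction (54.5%) was near the 50.9% of all genes. Eif2ak2, the double-stranded RNA-activated kinase, and Ppp1r15a, which brings a phosphatase to eIF2α, had log2 fold changes of 0.45 and 0.42 (adjusted p = 4.37e-06 and 2.47e-06). Gcn1, a partner of the amino acid-sensing kinase, was lower, with a log2 fold change of -0.21 (adjusted p = 1.85e-04), and without WT replicate 3 the genes called lower were 2.

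Other genes of one-carbon and folate metabolism mostly fell: of 24 tested, 14 were lower and 5 (20.8%) higher, against 26.1% and 24.7% of all genes, and the median log2 fold change was -0.24. The folate transporters Slc46a1 and Slc19a1 showed the largest decreases, with log2 fold changes of -0.50 and -0.46 (adjusted p = 0.0184 and 1.25e-07). The largest increases were in Gldc, of the glycine cleavage system, and in Srr, serine racemase, both scarce, with log2 fold changes of 1.07 and 0.77 (adjusted p = 7.02e-04 and 1.33e-04). Of 14 other amino acid transporters tested, 2 were higher and 4 lower (42.9% called), which is also near the 50.9% of all genes. Slc38a7 and Slc38a9 were higher, with log2 fold changes of 0.24 and 0.23 (adjusted p = 0.00268 and 0.0165), and Slc38a6 and Slc36a1 had the lowest values, at -0.25 and -0.20 (adjusted p = 0.00201 and 0.0467). Leaving out N275D replicate 1 or 3 left 1 of this list higher, and leaving out any N275D replicate left 2 lower. Of 21 other enzymes of amino acid metabolism, 7 were higher and 7 lower, a split as even as that of all genes (24.7% and 26.1%). Gls2, a glutaminase, and Got1, the cytosolic aspartate aminotransferase, were higher, with log2 fold changes of 0.56 and 0.33 (adjusted p = 1.84e-06 and 4.79e-06). Aldh4a1, of proline breakdown, and Pycrl, a cytosolic relative of Pycr1, were lower, with log2 fold changes of -0.60 and -0.33 (adjusted p = 2.17e-06 and 2.37e-04).

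**Figure D4:**
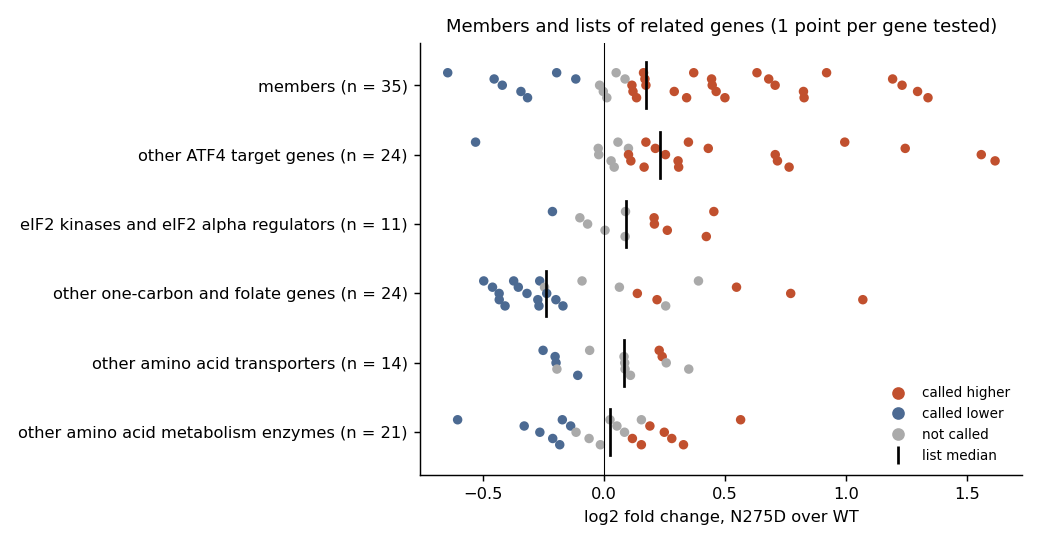
Log2 fold change, N275D over WT, of each tested gene (1 point a gene) in the 36-gene set and in 5 lists of related genes, with the median of each list as a vertical line. The medians are 0.17 for the set and 0.23 for other ATF4 targets, and -0.24 for other one-carbon and folate genes.

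Markers of some other cell types also differed between the genotypes. The summed B cell markers, 6 of 8 of them in the table, summed to between 1117 and 1155 normalized reads in WT and to between 1687 and 1754 in N275D libraries. Most of this was Ebf1, at 967 to 995 in WT and 1414 to 1538 in N275D libraries. CD8 T and natural killer cell markers, 7 of 8 in the table, summed to between 308 and 332.9 in WT and to between 468 and 529 in N275D libraries. Prf1, Cd8b1, Eomes, Klrk1 and Klrd1 of this list were called higher. Cd8a was not called (log2 fold change -0.22, adjusted p = 0.401), and Klrb1c was too low to test. Gamma delta T cell markers, 2 of 6 in the table, summed to between 31.3 and 41.3 and to between 58.3 and 65.9, stromal markers, 6 of 6, to between 85.7 and 94.9 and to between 100 and 109, and myeloid markers, 9 of 9, to between 88.8 and 105 and to between 84.9 and 116. Within the myeloid list, Adgre1 was called lower (log2 fold change -1.70, adjusted p = 5.12e-04) and Cd68 was not called. None of the marker genes in the table was at 0 in all libraries, and the part of other cells in the results was not tested.

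Of the 36 genes, 8 overlap another gene of the table on the opposite strand, and whether reads were counted by strand is not given in the sources used here. For 2 of them the overlapping gene also differed in the same direction. B4galt2, beside Slc6a9, had a log2 fold change of 0.33 (adjusted p = 0.0430), and Smcr8, beside Shmt1, had one of -0.18 (adjusted p = 0.00366). Cct6a, which overlaps Psph, was lower where Psph was higher (log2 fold change -0.14, adjusted p = 0.00875), and Mars1, which overlaps Ddit3, was not called (log2 fold change 0.03, adjusted p = 0.502). The overlapping genes of Atf5, Cebpb, Cebpg and Shmt2 were not called or were too low to test.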

How the data were processed

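The 6 libraries were assigned to genotype from their labels, which name a directional poly-A kit where the methods name strand-specific DNBSEQ libraries. According to the methods of the study, the authors aligned reads to mm10 with STAR, counted them per gene with featureCounts and compared genotypes with DESeq2. Each deposited value, treated as a signal, is the count that the authors obtained for a gene times a factor shared by its library: in every library, all values were whole multiples of it within 1e-06. The authors' own fold changes and q-values were not used. The 36 genes and all lists of related genes were chosen with earlier results of these data known, so that their counts are no independent evidence.

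Genes with a mean of at least 10 normalized reads were tested with limma (version 3.58.1, R 4.3.3) on log2(normalized reads + 1), using a prior variance that follows the mean, genotype only, and p-values adjusted over all 11908 genes. Genes called with an absolute log2 fold change of at least 0.5, and Atf4, are given per library, and Mthfd1, Mthfd1l, Slc1a5 and Slc3a2 were added per library after their values were seen. Of each related list the 2 largest called increases and decreases are named. The values of 2 single marker genes are not reported here. For each pair of replicates, the median chi-square between them was divided by its value under counting noise alone. It was 1.36 to 1.615 in N275D pairs and 1.466 for WT replicates 1 and 2. In pairs with WT replicate 3 it was 3.485 and 3.567. Each library counted as 1 sample in the tests, and these values do not show whether the replicates are biological. Levels per kilobase use GENCODE M21 exons, and coordinates are from RefSeq GRCm38.p6, which matched all 36 genes by number. Alternatives were other pseudocounts (0.1 and 10), filters (any mean above 0, or at least 100), TMM and quantile scaling, no trend, the replicate number as a block, and each library left out.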

Additional observations from a re-analysis of the deposited data

How the results depend on the processing

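Of the 36 genes, the 35 tested kept their direction wherever they were called. The 30 calls became 25 without the trend, 28 to 30 under the other settings, and 24 to 30 with a library left out, the lowest without N275D replicate 2. With the replicate number as a block they were 30. The block changed no call among the members, and 5727 genes were called with it against 6056. Same-numbered WT and N275D libraries did not deviate together (correlations of -0.0455, 0.0407 and -0.0828 for replicates 1, 2 and 3), and not every library correlated best with its own number, so the numbers were not taken as pairs.

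The count of genes called at 2-fold, 427, became 259 with a pseudocount of 10, 703 with a filter on a mean above 0 and 162 with a mean of at least 100. Serine-glycine-folate enzymes called higher were 3 rather than 5 without the trend, and 3 to 6 with a library left out. The 1 other amino acid enzyme called lower, Cbs, became 0 with a mean above 0 (adjusted p = 0.0710) and with a mean of at least 100, which it does not pass, and was 0 to 1 with a library left out. Calls of single genes that were lost were those of Cebpg (TMM scaling 0.0578, mean above 0 0.0772, no trend 0.151), Psat1 (no trend 0.0567), Shmt2 (no trend 0.0678), Aldh18a1 (no trend 0.0585) and Slc7a1 (quantile scaling 0.106, no trend 0.0779), all as adjusted p, beside those lost with a library. Mthfd2 passed with quantile scaling (log2 fold change 0.17, adjusted p = 0.00107). Over all alternatives, the calls of single genes and the counts of the related lists were taken as the same in 596 cases. A call was lost in 21 cases and gained in 2, and a count moved in 8. Small shifts of a count were taken as the same, such as 17 other ATF4 targets higher that became 20 with quantile scaling. The cause of these changes was not tested. Depth limits the low genes: Cbs, Slc43a1 and Ddr2 rest on fewer than 100 reads a library, and Nupr1 does so in the WT libraries. Nupr1 did not pass the filter on a mean of at least 100 either, where 7 stress regulators rather than 8 were called higher. edgeR and DESeq2 on recovered reads were planned and not run.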
